A study of Mus musculus with 36 samples.

Results

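The genes described here encode the proteins of the cytosolic ribosome. They were taken from the table of all genes by symbol (Rpl or Rps with a number, Rplp0 to Rplp2 and Rpsa), with symbols ending in -ps left out. The rule found 81 of 24127 genes, 49 of the large subunit and 32 of the small subunit. RNA was sequenced from dendritic cells grown with GM-CSF from the bone marrow of C57BL/6 mice and purified for CD11c, an integrin of the dendritic cell surface. The cells were wild type (WT) or Dhx58-/- (KO). Dhx58 encodes LGP2, an RNA-binding helicase related to the viral RNA sensor RIG-I. In both genotypes the cells were either transfected with 20 ng of PAMP RNA, a poly-U/C RNA of hepatitis C virus that RIG-I recognises, or kept as controls, which the labels call both mock and untreated. They were collected after 1, 3 and 6 h. Each of the 12 groups held 3 libraries, 36 in all, from cultures that the labels call biological triplicates. The labels give neither the age of the mice nor whether the triplicates came from different animals, so each p-value rests on the spread among cultures, which may be technical.

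A ribosome joins a small subunit, which reads the messenger RNA, to a large subunit, which forms the peptide bonds, and apart from those of the stalk the proteins are needed in equal numbers. The messenger RNAs of these proteins are abundant and begin with a terminal oligopyrimidine (TOP) tract, a C followed by a run of C and T. Through this tract the growth kinase mTOR, with the RNA-binding protein LARP1, controls their translation and stability as a group. In dendritic cells, pattern-recognition receptors trigger large changes in transcription and translation.

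The start sites of 8 of the genes are shown because the TOP tract is the feature these messenger RNAs share and the naming rule did not use. Promoters were available from RefSeq (GRCm38.p6) for 60 of the 81 genes. Each window runs from 10 bases before to 20 bases from the annotated start, which is base 11, and capitals mark its longest run of C and T. The first 5 genes begin with C and 4 further pyrimidines. They are Rps6 (chr4:86857348-86857377, minus strand), Rpl14 (chr9:120571507-120571536, plus strand), Rpl28 (chr7:4792955-4792984, plus strand), Rps27 (chr3:90213629-90213658, minus strand) and Rplp2 (chr7:141447641-141447670, plus strand). The last 3 do not. They are Rps27l (chr9:66946076-66946105, plus strand), Rpl39 (chrX:37085203-37085232, minus strand) and Rps4x (chrX:102189372-102189401, minus strand).
Rps6: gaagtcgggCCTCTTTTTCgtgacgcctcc
Rpl14: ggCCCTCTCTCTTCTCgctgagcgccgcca
Rpl28: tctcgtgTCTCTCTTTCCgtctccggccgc
Rps27: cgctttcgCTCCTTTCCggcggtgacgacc
Rplp2: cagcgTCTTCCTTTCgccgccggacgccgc
Rps27l: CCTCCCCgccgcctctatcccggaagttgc
Rpl39: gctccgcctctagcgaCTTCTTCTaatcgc
Rps4x: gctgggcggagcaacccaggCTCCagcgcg

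A C followed by 4 pyrimidines stood exactly at the annotated start in 12 of the 60 genes (20%) and in 672 of 27025 genes with a RefSeq promoter (2.49%). A run of at least 6 pyrimidines lay somewhere in the 30-base window in 34 of the 60 genes (56.7%) and in 28.5% of all genes. An annotated start a few bases away from the start used in these cells moves a tract within the window. Within the 300 bases from 250 before to 50 after the start, searched on both strands, CCGGAAG, the core bound by ETS factors, was present in 38.3% of the 60 promoters and in 9.17% of all. AAGATGG, the core bound by YY1, was present in 13.3% and 6.52%. TATAAA, the TATA box, was present in 8.33% and 14.2%. These matches are descriptions of the letters, and binding was not measured.

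The libraries held 4740909 to 14255730 reads in genes, of which 113457 to 407422 fell on ribosomal protein genes. Values are the authors' normalized counts, reads divided by 1 size factor per library. Markers of the labelled cell type were present: Itgax, which encodes CD11c, averaged 2923 normalized counts, and 7 of the 9 dendritic cell markers passed the minimum mean of 10. Macrophage markers were also high (8 of 8 passed), the summed neutrophil markers lay between 122 and 264 normalized counts in the libraries, and none of the markers of lymphocytes (8), mast cells and basophils (5) or red cell precursors (7) passed that minimum. Of these Cd3g, Tpsb2, Hbb-bs and Car1 were at 0, and the highest value in any library was 18.8 for Klrb1c, a marker of natural killer cells. Dhx58, the gene named as deleted, was counted at 83.6 to 362 in WT mock libraries and at 108 to 808 in the libraries labelled KO mock. With PAMP RNA at 3 and 6 h it reached 1428 to 3066 in WT and 567 to 1012 in the libraries labelled KO. Reads on Dhx58 in the libraries labelled KO do not show which part of the gene they cover.

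Compared per length of the principal transcript (in the GENCODE annotation of GRCm38), the highest levels belonged to Rpl41, which encodes a very short basic peptide, with 15713 normalized counts per kilobase, and to Rplp1, a protein of the stalk that recruits elongation factors, with 14249. Their ranges over the 36 libraries overlapped, from 12378 to 19568 for Rpl41 and from 11623 to 18408 for Rplp1, and both lay above the range of Rps2 (7804 to 10001), next in order. Rps2, at the messenger RNA entry of the small subunit, was followed by Rps9 (7478), Rplp0 (7044), Rps6 (6988) and Rpsa (6503), whose ranges all overlapped with one another. Rplp0 is the base of the stalk, Rps6 is phosphorylated downstream of mTOR, and Rpsa is also known as a laminin receptor. Rpl26 (6012) came next. The third stalk protein, Rplp2, was lower at 529 per kilobase. In normalized counts not set per length, the 8 highest genes (Rpsa, Rplp0, Rps2, Rpl41, Rplp1, Rps6, Rps9 and Rpl4) held 32.0% of the summed counts of the 81.

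**Figure D1:**
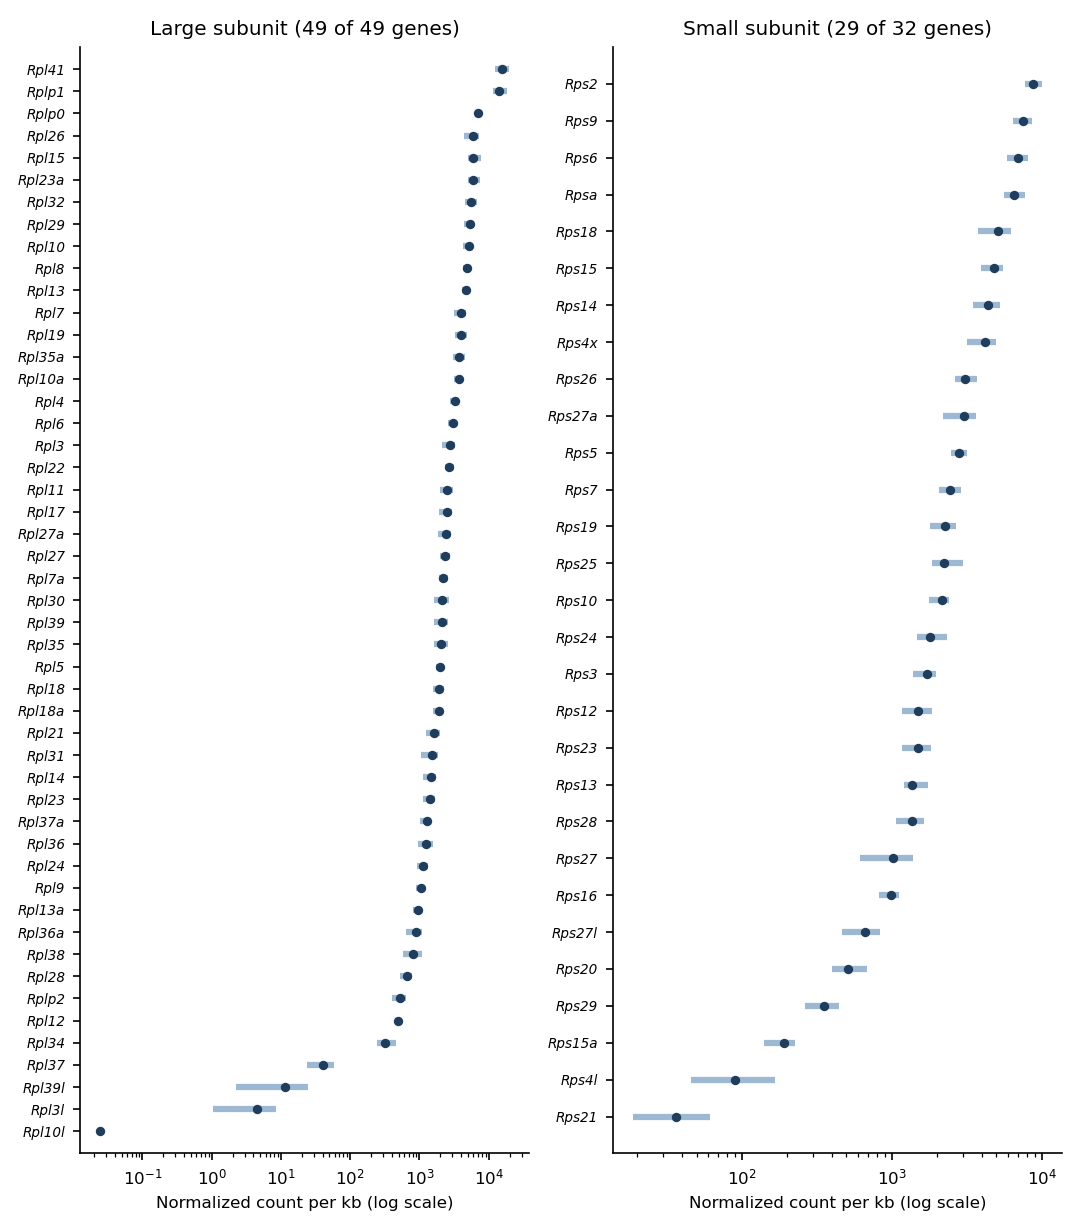
Normalized count per kilobase of the principal transcript (log axis) for the 49 large-subunit genes and 29 of the 32 small-subunit genes, with the mean over 36 libraries as a point and the range from the lowest to the highest library as a bar. Rpl41 and Rplp1 stand above the rest, and Rpl10l, Rpl3l and Rpl39l lie at the foot of the large-subunit genes.

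Most of the 81 genes were abundant, with 57 above a mean of 1000 normalized counts, but a few were scarce. Rpl37 averaged 34.3 normalized counts (41.0 per kilobase) and Rps21 averaged 14.3 (36.4 per kilobase), although both encode proteins found in every ribosome. Rps20 and Rps15a ranked low per kilobase (509 and 193), with principal transcripts of 3706 and 5130 bases. The 3 genes that did not pass the minimum mean of 10 were paralogues known from particular tissues. Rpl10l and Rpl39l are known from the testis and Rpl3l from muscle. Rpl10l had 1 read in all libraries, Rpl39l ranged from 1.78 to 20.0 normalized counts and Rpl3l from 1.43 to 11.8. The other 78 (46 large, 32 small) were tested. Rps4l, a copy of Rps4x on chromosome 6 (chr6:148354656-148355598) that the annotation calls a transcribed processed pseudogene, averaged 70.7 normalized counts. In 33 of the 81 genes more than 50% of the 100-base stretches of the transcript also occur in transcripts of other genes, so the counts of those genes depend on how shared reads were assigned. Rps27 (98.4% shared, the highest), Rps6 (83.6%) and Rpl3 (79.4%) are among them, while Rps27l shares 0% and Rpl39 1.75%.

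The ribosomal protein genes moved together between replicate libraries. The first component of their deviations from the group means held 49.0% of the variance, and their median SD within groups was 0.11 on the log2 scale (0.12 for all genes tested). Library 3 of the WT mock group at 1 h was low, with 1 of the 78 genes above its group mean, and library 1 of the WT mock group at 3 h was also low, with 2 of 78. Library 1 of the KO PAMP group at 3 h was high, with 74 of 78, and it was the shallowest library. Other genes with transcripts of at most 700 bases (351 genes) deviated the same way in these libraries, by a median of -0.09, -0.07 and 0.09, where the ribosomal protein genes deviated by -0.18, -0.11 and 0.15. Counts and medians that these 3 libraries move are given with and without them.

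The share of all normalized counts taken by the 81 genes, which does not depend on the size factors, was lower with PAMP RNA at 6 h. In WT cells it was 2.63% ± 0.048 (SD, n = 3) in mock and 2.10% ± 0.046 with PAMP RNA. In KO cells it was 2.45% ± 0.038 and 1.88% ± 0.022. The 3 PAMP libraries lay below the 3 mock libraries in both genotypes, and an exact permutation test of 3 against 3 libraries cannot give a p below 0.10. At 3 h the WT share was 2.75% ± 0.15 in mock and 2.58% ± 0.073 with PAMP RNA, with overlapping ranges, and the KO share was 2.52% ± 0.11 and 2.17% ± 0.19, where library 1 of the PAMP group (2.39%) reached the lowest mock library. At 1 h the WT share was 2.66% ± 0.26 in mock and 2.76% ± 0.087 with PAMP RNA, and the KO share 2.64% ± 0.081 and 2.62% ± 0.096. A lower share can come from fewer cells of one kind, from less of this RNA per cell or from more RNA of other genes. In bulk RNA these cannot be told apart.

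At 3 and 6 h the summed normalized counts of the 81 genes differed less between mock and PAMP libraries than the normalized totals of the libraries did. At 6 h the total went from 7427800 ± 59203 to 9621720 ± 100801 in WT and from 7394680 ± 80165 to 10365200 ± 112065 in KO (SD, n = 3, groups not overlapping). The sum over the ribosomal protein genes was 195102 ± 5133 in WT mock and 201946 ± 4778 with PAMP RNA, and 181213 ± 4544 and 195284 ± 4321 in KO. At 6 h the sums were also higher in all PAMP libraries than in all mock libraries of the same genotype. The direction of a gene at 3 or 6 h can therefore depend on the scaling. Changes below are log2 differences of normalized count + 1 on the deposited scale, from limma with Benjamini-Hochberg adjustment over all genes. "Rose" and "fell" refer to an adjusted p under 0.05. The same changes with every library set to an equal total, and after quantile normalization, are given beside the counts.

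**Figure D2:**
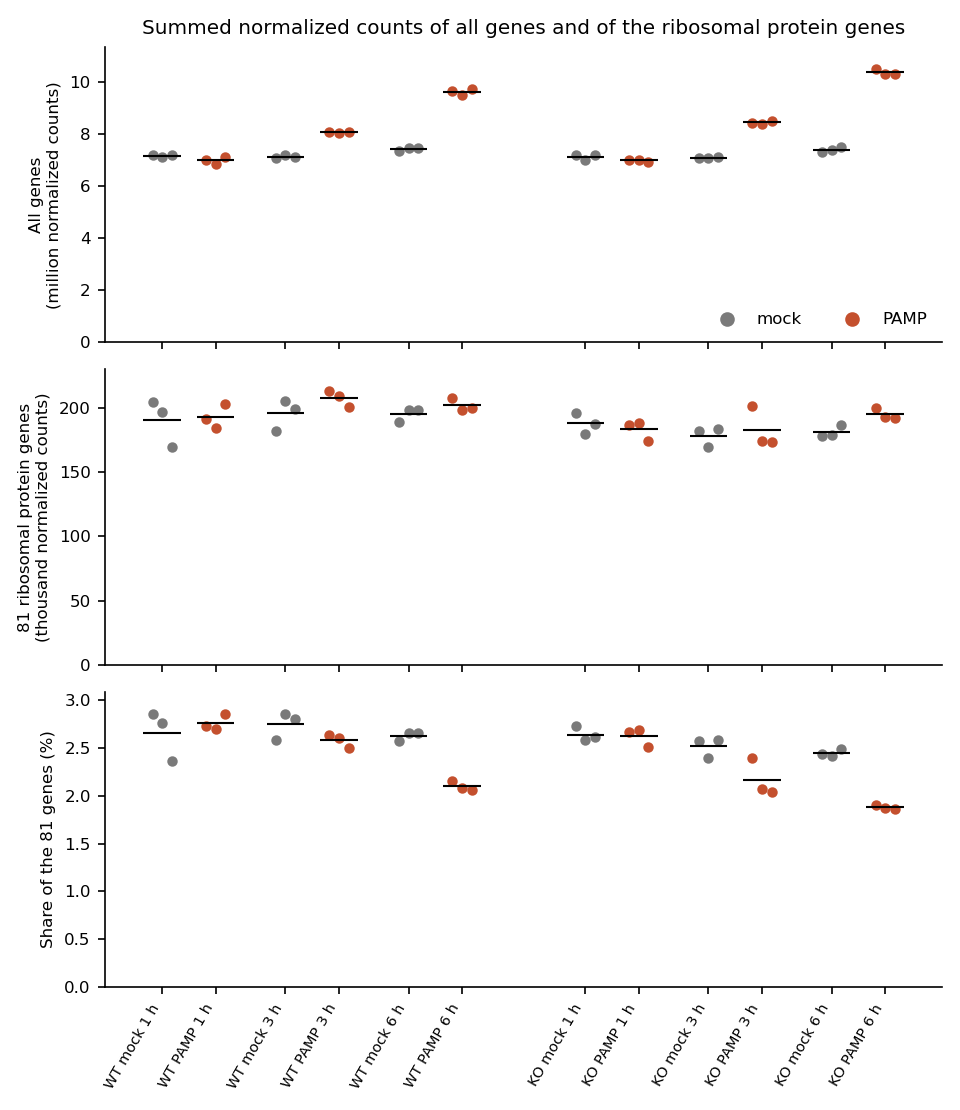
Normalized total of all genes, summed normalized counts of the 81 ribosomal protein genes, and their share in percent, with 1 point per library, the mean as a line, and the 12 groups along the axis. At 6 h the total is higher with PAMP RNA, the sum is slightly higher, and the share lies below mock in both genotypes.

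At 1 h no ribosomal protein gene passed the test in either genotype, with 0.945% of all genes called in WT and 1.36% in KO. The unadjusted p was under 0.05 for 0 genes in WT and 1 in KO, and edgeR and DESeq2 also called 0. The median change was 0.03 in WT and -0.05 in KO. Without library 3 of the WT mock group, which was low for the whole family, the WT median was -0.06.

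At 3 h in WT cells 5 genes rose and 0 fell on the deposited scale, where 19.6% of all genes rose and 22% fell. They were Rps20 and Rps24 of the small subunit, Rps12, Rpl27 and Rpl15. Rps20, in the head of the small subunit, was counted at 1622, 1888 and 1854 in mock and at 2053, 2031 and 2044 with PAMP RNA, a difference of 0.20 ± 0.062 (SE, adjusted p = 0.00913). The lowest of these values came from library 1 of the mock group, which was low for the whole family. Without that library 0 genes rose, Rps20 differed by 0.13 (adjusted p = 0.137), and the median change of the 78 genes was 0.03 in place of 0.09. With equal totals 0 genes rose and 12 fell (45.3% of all genes fell), and after quantile normalization 0 rose and 28 fell (32% of all genes fell).

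At 3 h in KO cells 1 gene rose and 1 fell, where 23.8% of all genes rose and 26.9% fell. Rps20 was counted at 1678, 1492 and 1673 in mock and at 2086, 1731 and 1775 with PAMP RNA, so the groups did not overlap (0.20 ± 0.062, adjusted p = 0.00496). The high value belonged to library 1 of the PAMP group, without which the difference was 0.12 (adjusted p = 0.119), and without library 2 of the mock group it was 0.15 (adjusted p = 0.0655). Rpl3, close to the site of peptide bond formation in the large subunit, was counted at 3682, 3647 and 3945 in mock and at 3454, 3351 and 3349 with PAMP RNA. All 3 PAMP values lay below mock, a fall of 0.15 ± 0.053 (adjusted p = 0.0154) that also passed with equal totals and after quantile normalization but not without library 3 of the mock group (adjusted p = 0.108). With equal totals 57 genes fell (56.8% of all genes) and after quantile normalization 55 (36.6%), and 0 rose. The median change was 0.04, and -0.04 without library 1 of the PAMP group. Without the 3 libraries that stood apart, 0 genes rose and 3 fell in KO, and 0 rose and 1 fell in WT. In that fit 2770 of the 11853 genes tested rose and 2962 fell in KO, and 2203 and 2279 in WT.

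By 6 h more ribosomal protein genes had changed, in both directions and by small amounts. In WT cells 18 of 78 rose and 7 fell on the deposited scale, with a median change of 0.08 against -0.02 over all genes, of which 32.1% rose and 33.3% fell. In KO cells 34 rose and 10 fell, with a median of 0.12 against -0.03, where 35.1% and 36.5% of all genes did. Among genes with a mean of at least 500 normalized counts, 78.5% of all and 30.9% of the 68 ribosomal protein genes passed in WT, and 83.4% and 57.4% in KO. The changes ranged from -0.43 (Rpl3) to 0.47 (Rps4l) in WT and from -0.39 (Rpl3) to 0.71 (Rps27l) in KO. Without the 3 libraries that stood apart, none of which is from 6 h, 26 rose and 8 fell in WT, and 38 and 13 in KO. In that fit 3876 of the 11853 genes tested rose and 4023 fell in WT, and 4215 and 4392 in KO. Without library 1 of the WT PAMP group at 6 h, 10 ribosomal protein genes rose in WT, and calls over all genes were not counted in that fit. Markers of cell types moved as well: the summed macrophage markers were 25852 to 25997 in WT mock and 31459 to 33000.3 with PAMP RNA, and 23793 to 24656 and 32364 to 34597 in KO. They did not all move one way: of the 8 macrophage markers 5 rose and 3 fell in WT, and 5 rose and 2 fell in KO. The summed dendritic cell markers were 47623 to 49154 and 51401 to 54227 in WT, and 34189 to 35073 and 39572 to 40233 in KO. Of the 7 tested dendritic cell markers 4 rose and 1 fell in WT, and 5 rose and 1 fell in KO. The part of cell composition in the changes of the ribosomal protein genes was not tested.

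Fewer genes rose and more fell under the other scalings, both of which lower the ribosomal protein genes against the deposited scale. With equal totals 0 genes rose and 62 fell in WT (62.4% of all genes fell), and 1 rose and 60 fell in KO (66.5%). After quantile normalization 5 rose and 60 fell in WT (39.3%), and 4 rose and 58 fell in KO (41.9%). All 7 genes that fell in WT and all 10 that fell in KO on the deposited scale also fell under both other scalings. Of the rises, 0 in WT and 1 in KO (Rps27l) passed under all 3. A scaling that lowers these genes keeps falls and removes rises by its construction, so these counts do not compare how stable falls and rises were. Equal totals moved the median of all genes to -0.39 in WT and -0.51 in KO. Relative to it the median ribosomal protein gene was 0.10 higher in WT and 0.14 higher in KO, against 0.10 and 0.15 on the deposited scale. Equal totals multiplies all genes of a library by 1 factor, so it keeps this distance by construction and is no second test of it. After quantile normalization the median ribosomal protein gene was lower than the median of all genes, by -0.24 in WT and -0.23 in KO.

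**Figure D3:**
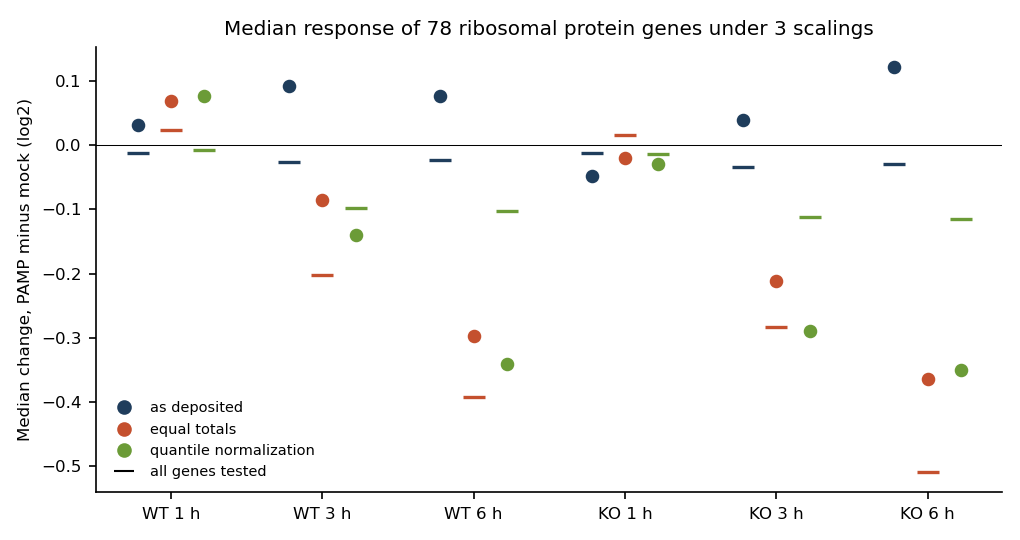
Median log2 change with PAMP RNA of the 78 tested ribosomal protein genes (points) and of all genes tested (short lines) at 1, 3 and 6 h in WT and KO, coloured by scaling. At 3 and 6 h the median of the ribosomal protein genes lies above 0 on the deposited scale and below 0 with equal totals and after quantile normalization. Equal totals shifts all genes of a library alike, so there the median stays above that of all genes by construction. The KO median at 3 h on the deposited scale (0.04) is -0.04 without library 1 of the PAMP group.

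Rpl3 had the largest fall in both genotypes at 6 h. In WT it was counted at 4150, 4448 and 4224 in mock and at 3105, 3328 and 3111 with PAMP RNA. In KO it was counted at 3950, 3887 and 4102 in mock and at 3049, 3161 and 2904 with PAMP RNA. Every PAMP library lay below every mock library, with changes of -0.43 ± 0.053 in WT (adjusted p = 1.4e-09) and -0.39 ± 0.053 in KO (adjusted p = 9.61e-09). Rpl14, a protein of the solvent side of the large subunit, fell from 1559, 1561 and 1507 to 1297, 1291 and 1339 in WT. In KO it fell from 1479, 1479 and 1555 to 1213, 1121 and 1175. The changes were -0.24 ± 0.059 (adjusted p = 0.000474) and -0.36 ± 0.059 (adjusted p = 4.29e-07). Rpl6, also of the large subunit, fell by 0.12 in WT and 0.17 in KO. In all, 4 genes fell in both genotypes, 57.1% of the WT falls and 40% of the KO falls. Over all genes 33.3% fell in WT and 36.5% in KO, and how many fell in both was not counted.

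Other falls passed in 1 genotype. Rplp2, of the stalk, changed by -0.24 ± 0.091 in WT (adjusted p = 0.018), a call lost without library 3 of the PAMP group (adjusted p = 0.109) or library 1 of the mock group (adjusted p = 0.0722), and by -0.16 in KO (adjusted p = 0.11). Rpl4 fell by 0.17 in WT. Rpl28, of the large subunit, was counted at 750.5, 808 and 831 in KO mock and at 669, 577 and 635 with PAMP RNA, a fall of 0.35 ± 0.066 (adjusted p = 9.66e-06). Its WT groups overlapped (-0.12, adjusted p = 0.106). Rps4x, the X-linked form of a small-subunit protein, fell by 0.22 in KO (adjusted p = 0.00265) and was at 0.03 in WT. Without library 3 of the KO PAMP group its change was -0.15 (adjusted p = 0.0605). Rpl10, a late-joining protein near the transfer RNA sites, fell by 0.19 in KO and was at -0.03 in WT. Of the differences between genotypes for these genes, none passed the test given further below.

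Rps27l had the largest rise in KO and Rps4l and Rps27l those in WT. Rps27l encodes a paralogue of Rps27 known as a target of p53. It was counted at 267, 278 and 301 in WT mock and at 403, 353 and 419 with PAMP RNA, and at 234, 253 and 241 in KO mock and 398, 377 and 413 with PAMP RNA. The groups did not overlap in either genotype, and the changes were 0.47 ± 0.085 in WT (adjusted p = 4.2e-06) and 0.71 ± 0.085 in KO (adjusted p = 4.85e-10). The KO rise passed under all 3 scalings, and the WT rise on the deposited scale and after quantile normalization but not with equal totals. Its paralogue Rps27 was at 0.03 in WT. In KO it was counted at 337, 271 and 252 in mock and at 358, 388 and 455 with PAMP RNA, a difference of 0.48 ± 0.13 (adjusted p = 0.00125) that was -0.0018 with equal totals.

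Rps20 and Rps24 rose on the deposited scale in both genotypes. Rps20 was counted at 1799, 1864 and 1889 in WT mock and at 2515, 2233 and 2526 with PAMP RNA, and at 1689, 1688 and 1821 in KO mock and 2489, 2286 and 2465 with PAMP RNA. The PAMP libraries were higher in each case, by 0.39 ± 0.062 (adjusted p = 4.75e-07) and 0.48 ± 0.062 (adjusted p = 3.26e-09). Rps24, a small-subunit protein mutated in Diamond-Blackfan anaemia, was at 2458, 2931 and 2742 in WT mock and at 3732, 3337 and 3370 with PAMP RNA. In KO it was at 2539, 2526 and 2635 in mock and at 3800, 3609 and 3406 with PAMP RNA. The groups were apart in both, with changes of 0.36 ± 0.066 (adjusted p = 5.66e-06) and 0.49 ± 0.066 (adjusted p = 9.11e-09). After quantile normalization Rps20 was at -0.07 in WT (adjusted p = 0.344), and Rps24 in KO passed as a fall (-0.14, adjusted p = 0.0417). With equal totals Rps20 was at 0.014 in WT (adjusted p = 0.828) and Rps24 at 0.0018 in KO (adjusted p = 0.979). In all, 11 genes rose in both genotypes, 61.1% of the WT rises and 32.4% of the KO rises (Rpl15, Rpl23a, Rpl34, Rpl35, Rplp1, Rps19, Rps20, Rps23, Rps24, Rps27l and Rps7). Over all genes 32.1% rose in WT and 35.1% in KO. How many of all genes rose in both was not counted, so the overlap cannot be called high or low.

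**Figure D4:**
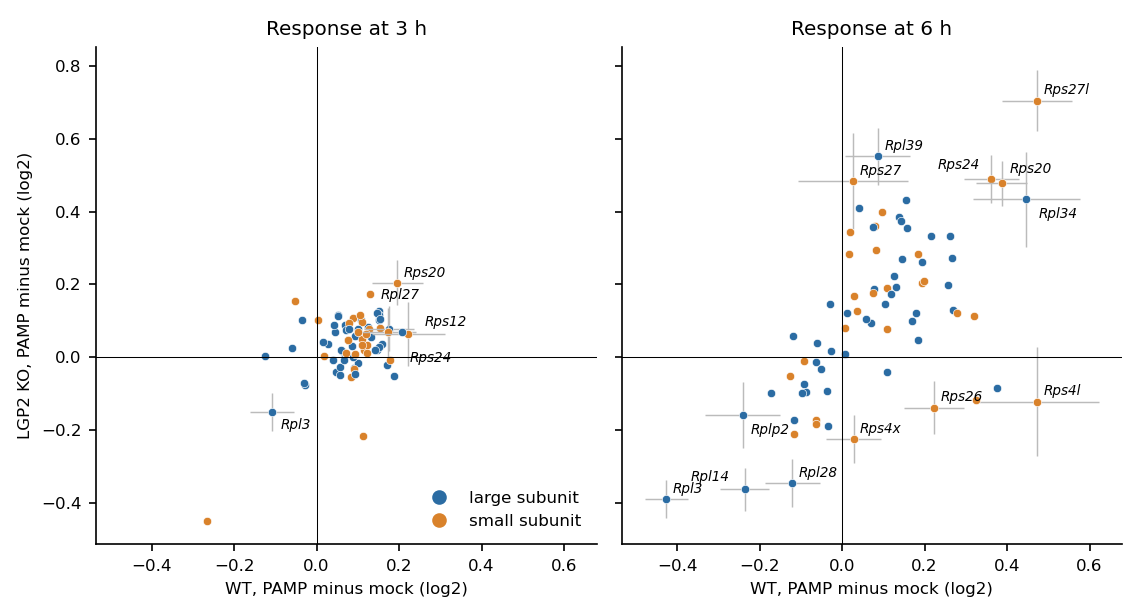
Log2 change with PAMP RNA in WT (horizontal) and KO (vertical) at 3 and 6 h on the deposited scale, 1 point per gene drawn (75 of the 78 tested) coloured by subunit, with standard errors for the labelled genes. At 6 h Rpl3 and Rpl14 lie low in both genotypes and Rps27l high in both, while Rpl39 lies higher in KO than in WT.

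The remaining genes can be read by role, again on the deposited scale at 6 h. Of the stalk, Rplp0 was counted at 9751, 9842 and 10186 in WT mock and at 9395, 8897 and 9630 with PAMP RNA and did not pass the test (-0.09 in WT and -0.07 in KO). Rplp1 rose by 0.27 in each genotype. Of the proteins that bind the p53 regulator Mdm2, Rpl5 was at 0.07 in WT and 0.09 in KO without passing, and Rpl11 was at 0.14 in WT and rose by 0.27 in KO. Of the proteins used at the messenger RNA path and decoding site, Rps2 (-0.09 and -0.01) and Rps6 (-0.13 and -0.05) did not pass, and Rps3 was at 0.07 in WT and rose by 0.18 in KO. Rpsa was at 0.11 and 0.08, without passing. Rpl13a, which silences inflammatory messenger RNAs when released from the ribosome, was at -0.12 in WT and 0.06 in KO without passing.

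Of the genes known for selective effects on translation or development, Rps25, used by viral internal ribosome entry sites, rose by 0.32 in WT and was at 0.11 in KO. Rpl38, needed for translation of Hox messenger RNAs, was at 0.07 in WT and rose by 0.36 in KO. Rpl22, known from T cell development, was at 0.12 in WT and rose by 0.17 in KO. Rps19, mutated in Diamond-Blackfan anaemia, rose by 0.19 and 0.20. Rps27a, made as a fusion with ubiquitin, was at 0.10 in WT and rose by 0.40 in KO. Rpl41 was at 0.14 in WT and rose by 0.38 in KO, where it went from 7845, 7993 and 8125 to 10580, 10297 and 10400. None of these rises passed with equal totals, and only that of Rpl38 in KO passed after quantile normalization. Rpl34 rose by 0.45 in WT, with 3 PAMP libraries (189, 184 and 203) above mock (161, 141 and 122). That rise passed after quantile normalization but not with equal totals (0.076, adjusted p = 0.599).

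By subunit, in WT 10 of 32 small-subunit genes rose and 2 fell (median 0.08), and 8 of 46 large-subunit genes rose and 5 fell (median 0.08). In KO the counts were 16 and 5 (median 0.15) and 18 and 5 (median 0.11). Counts by subunit and by start site are on the deposited scale. There 32.1% of all genes rose and 33.3% fell in WT, and 35.1% and 36.5% in KO. With equal totals 0 of the 78 genes rose in WT and 1 in KO. Of the 12 genes with a C and 4 pyrimidines at the annotated start, 2 rose and 2 fell in WT (median 0.02) and 6 rose and 2 fell in KO (median 0.17). Of the 45 tested genes with a promoter and no such start, 10 rose and 2 fell in WT (median 0.08) and 19 and 6 in KO (median 0.11). Rpl14 and Rpl28, shown above with long tracts, were among the genes that fell in KO, and Rps27 among those that rose there. Across the 78 genes the WT and KO changes at 6 h had a Pearson correlation of 0.58 (Spearman 0.57) and the same sign in 67. The correlation was not computed over all genes, and genes counted in the same libraries are not independent replicates.

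The KO response differed from the WT response in few genes, all at 6 h. At 1 h and 3 h no ribosomal protein gene passed, where 0.118% and 3.14% of all genes did, with 1 and 3 genes at an unadjusted p under 0.05, and edgeR and DESeq2 also called 0. At 6 h the response was higher in KO in 2 of 78 genes (6.67% of all genes), Rpl39 among them, and lower in 1, Rps26 (3.81%). Without the 3 libraries that stood apart 6 were higher (7.8% of all genes) and 2 lower (4.55%). With equal totals 1 was higher (3.21%) and 6 were lower (10.5%).

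Rpl39, a small protein that lines the exit tunnel of the nascent chain, was counted at 1341, 1406 and 1447 in WT mock and at 1515, 1441 and 1498 with PAMP RNA. In KO it was counted at 1064, 1056 and 1057 in mock and at 1483, 1575 and 1604 with PAMP RNA. The WT groups overlapped, the KO groups did not, and the KO mock libraries were the low ones. The change was 0.09 in WT and 0.55 ± 0.079 in KO (adjusted p = 3.1e-08), the KO change did not pass with equal totals (0.065) or after quantile normalization (0.12), and the difference was 0.46 ± 0.11 (adjusted p = 0.00388). The difference also passed with equal totals (0.35), after quantile normalization (0.41), in edgeR and DESeq2, and with each of the 12 libraries left out in turn.

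Rps26, which lies along the messenger RNA upstream of the start codon, was counted at 1859, 1912 and 2038 in WT mock and at 2401, 2126 and 2259 with PAMP RNA. In KO it was counted at 2125, 2169 and 2213 in mock and at 2278, 1792 and 1873 with PAMP RNA. It rose by 0.22 in WT on the deposited scale, and in KO the groups overlapped (-0.14, adjusted p = 0.0875). The difference was -0.36 ± 0.10 (adjusted p = 0.0165). It also passed with equal totals (-0.48) and after quantile normalization (-0.42), but not without a filter on low counts (adjusted p = 0.0556), nor without library 2 (-0.29, adjusted p = 0.0761) or 3 (adjusted p = 0.0533) of the KO PAMP group or library 1 of the WT PAMP group (adjusted p = 0.0552).

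**Figure D5:**
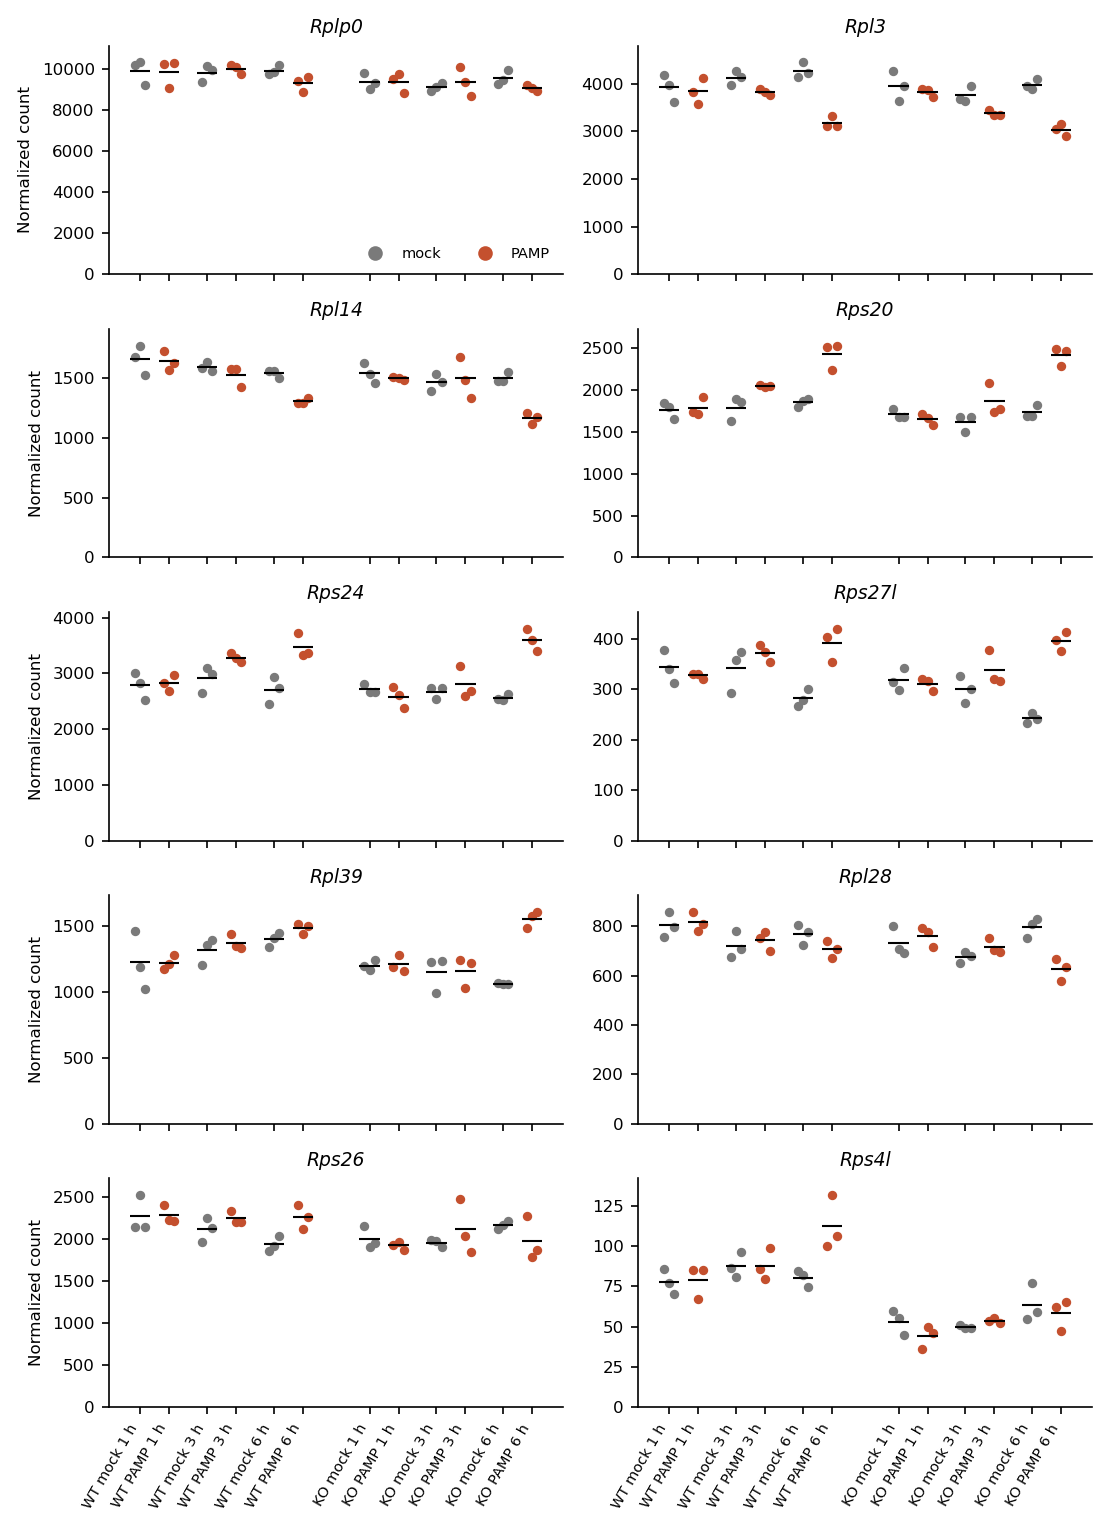
Normalized counts of 10 ribosomal protein genes in each of the 36 libraries, 1 point per library, the group mean as a line, and the 12 groups along the axis (axes start at 0). Rpl3 and Rpl14 are lower with PAMP RNA at 6 h, Rps27l is higher, and Rpl39 is low in KO mock cells at 6 h.

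In mock cells ribosomal protein genes were slightly lower in KO than in WT. Averaged over the 3 times, 28 of 78 were lower, 0 were higher, and the median difference was -0.09 (0.01 over all genes, of which 11.7% were lower and 10.5% higher). With equal totals 27 were lower (11.1% of all genes) and after quantile normalization 21 (11.6%), and 20 passed under all 3 scalings. Rpsa was at 10046 to 11560 in WT and 9175 to 10552 in KO at 1 h, and at 10150 to 10769 and 8991 to 9603 at 6 h, where the groups were apart. Its difference was -0.18 ± 0.035 (adjusted p = 7.97e-05). The counts moved with single libraries: 47 genes were lower without library 3 and 15 without library 1 of the WT mock group at 1 h, and 58 without the 3 libraries that stood apart (12.1% of all genes). Calls over all genes were not counted in the fits without a single library. By sign alone, with no test, 40 of 78 genes had a lower mean in KO at 1 h (median -0.0030), 74 at 3 h (median -0.14) and 62 at 6 h (median -0.10), with a median over all genes of 0.01, 0.0072 and 0.0038. Without the 3 libraries the numbers were 71 at 1 h (median -0.10) and 75 at 3 h (median -0.20). Whether the difference varied with time was not tested. Other genes of translation had medians below 0 in this comparison too. Of 8 elongation factors 3 were lower and 1 higher (median -0.08), and of 30 initiation factors 2 were lower and 0 higher (median -0.05). Of 7 genes of ribosomal and related proteins outside the rule 1 was lower and 0 higher (median -0.06). Of 77 mitochondrial ribosomal protein genes 1 was lower and 2 were higher (median -0.0061).

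The largest of these differences was that of Rps4l. It was counted at 86.0, 77.0 and 70.5 in WT and 59.5, 55.1 and 45.0 in KO at 1 h, and at 86.2, 80.7 and 96.3 in WT and 51.0, 49.4 and 49.4 in KO at 3 h. At 6 h it was at 84.7, 82.0 and 74.5 in WT and 55.0, 76.9 and 59.0 in KO. The KO libraries were lower throughout, with overlap only at 6 h, and the difference was -0.56 ± 0.087 (adjusted p = 1.4e-06). With PAMP RNA at 6 h it was at 100, 132 and 106 in WT and at 62.5, 47.2 and 65.3 in KO. The WT change of 0.47 ± 0.15 (adjusted p = 0.0054) was not called without library 2 of the PAMP group (adjusted p = 0.0562) or with equal totals. The KO groups overlapped (-0.12, adjusted p = 0.474), and the response difference of -0.60 ± 0.21 did not pass (adjusted p = 0.063).

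Rps27 (-0.28 ± 0.077, adjusted p = 0.00582) and Rpl39 (-0.21 ± 0.045, adjusted p = 0.000517) were also lower. At 1, 3 and 6 h their differences were 0.15, -0.43 and -0.55 for Rps27, and -0.02, -0.20 and -0.40 for Rpl39. Without the 3 libraries that stood apart they were -0.07 and -0.52 for Rps27, and -0.14 and -0.26 for Rpl39, at 1 and 3 h. The mock libraries at 6 h are the same as those in the response difference of Rpl39. All 7 tested dendritic cell markers were lower in KO mock cells as well (median -0.47), with summed levels of 42868 to 44401 in WT and 28183 to 31315 in KO at 1 h, 40103 to 41170 and 26612 to 28775 at 3 h, and 47623 to 49154 and 34189 to 35073 at 6 h. Of 8 macrophage markers 3 were higher and 2 lower. The part of cell composition in the ribosomal protein differences was not tested.

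During culture of mock cells, with WT and KO averaged, few ribosomal protein genes changed. From 1 to 3 h, 0 rose and 2 fell (27.7% of all genes fell), among them Rpl28 by 0.14 ± 0.047 (adjusted p = 0.0119). The Rpl28 call was lost after quantile normalization (-0.10, adjusted p = 0.0713), without the 3 libraries that stood apart (adjusted p = 0.0544) and without library 1 of the KO mock group at 1 h (adjusted p = 0.0668). Without library 3 of the WT mock group at 1 h, 10 fell, and calls over all genes were not counted in that fit. From 3 to 6 h, 5 rose (28.9% of all genes) and 3 fell (28.4%). Rps27l fell by 0.29 ± 0.060 (adjusted p = 7.24e-05), from 293, 357 and 375 to 267, 278 and 301 in WT and from 327, 272 and 300 to 234, 253 and 241 in KO. Rpl28 was higher by 0.17 ± 0.047 (adjusted p = 0.00235) and Rps9 by 0.15 ± 0.040 (adjusted p = 0.00127, but 0.050 with adjusted p = 0.283 after quantile normalization), and Rpl5 fell by 0.12 ± 0.039 (adjusted p = 0.0083). Rpl37a (0.16), Rplp2 (0.15), Rpl13 (0.13) and Rpl4 (-0.09) also passed, and of these Rpl37a, Rplp2 and Rpl4 lost the call with single libraries left out. With equal totals 2 rose (22.9% of all genes) and 13 fell (35%).

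Other genes of translation were compared as lists on the same scales. On the deposited scale 32.1% of all genes rose and 33.3% fell in WT at 6 h, and 35.1% and 36.5% in KO. With equal totals 62.4% of all genes fell in WT and 66.5% in KO, and after quantile normalization 39.3% and 41.9%. At 6 h, 5 of 8 elongation factors fell and 2 rose in both genotypes (medians -0.24 in WT and -0.27 in KO). Eef2, which moves the ribosome along the messenger RNA, fell by 0.45 in WT and 0.56 in KO, Eef1g by 0.43 in each, and Eef1a1, which brings transfer RNAs, by 0.23 and 0.27. Eif5a rose by 0.40 and 0.44. With equal totals 0 elongation factors rose and 6 fell in each genotype, and after quantile normalization 1 rose and 7 fell in each. A list of 12 other genes known for TOP tracts shares Eef2 and Eef1a1 with the elongation factors and Pabpc1 with the initiation factors. It also shares Npm1 with the genes of ribosome assembly and Gnb2l1 with the genes outside the rule. Of these 12 genes 1 rose and 6 fell in WT and 2 rose and 7 fell in KO. With equal totals 12 and 11 fell and 0 rose, and after quantile normalization 12 fell and 0 rose in each genotype. Pabpc1, the poly(A)-binding protein, fell by 0.25 and 0.35, while Tpt1 rose by 0.19 and 0.38 on the deposited scale. Of 7 tested genes of ribosomal and related proteins whose symbols the rule does not take (Rpl22l1 and Rpl7l1 among them), 3 rose in WT and 4 in KO, and 0 fell. With equal totals 7 and 6 fell, and after quantile normalization 5 fell in WT, and 1 rose and 6 fell in KO.

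Of 30 initiation factors 11 rose and 7 fell in WT and 11 and 8 in KO, with Eif4a1, the RNA helicase of initiation, higher by 0.52 and 0.53. With equal totals 5 and 2 rose and 22 and 23 fell, and after quantile normalization 4 and 5 rose and 16 and 19 fell. Of 19 genes of growth control 7 rose and 8 fell in WT and 6 and 9 in KO, and Larp1 rose by 1.43 and 1.79. Set to equal totals, 4 of the 19 rose and 13 fell in each genotype. Quantile normalization gave 5 rises and 9 falls in WT, and 5 and 10 in KO. Of 40 genes of ribosome assembly 11 rose and 15 fell in WT (median -0.15) and 10 and 20 in KO (median -0.27). Their counts with equal totals were 2 and 28 in WT, and 1 and 31 in KO. The quantile counts stayed near the deposited ones, with 11 and 15 in WT, and 11 and 20 in KO. Ncl, the nucleolar protein nucleolin, fell by 0.33 and 0.51, and Sbds, which helps the large subunit mature, rose by 1.18 and 1.42. In mock cells 31 of the 40 fell from 1 to 3 h (median -0.30, 27.7% of all genes) and 36 from 3 to 6 h (median -0.53, 28.4%). Under the other scalings 30 to 38 fell. The ribosomal protein genes had medians of -0.01 and 0.01 in these comparisons. Of 10 non-coding host genes of small nucleolar RNAs 4 rose and 2 fell in WT and 4 and 4 in KO, with Gas5 higher by 0.40 and 0.36. Their counts with equal totals were 2 and 4 in WT, and 1 and 5 in KO. The quantile counts were 4 and 1 in WT, and 4 and 4 in KO. Of 77 mitochondrial ribosomal protein genes 25 rose and 14 fell in WT and 28 and 17 in KO. Set to equal totals, 4 rose and 39 fell in WT, and 5 and 51 in KO. Quantile normalization did not turn this list to falls, with 27 rises and 11 falls in WT, and 30 and 18 in KO. In mock cells 44 of the 77 fell from 3 to 6 h on the deposited scale (28.4% of all genes), where 3 of the 78 cytosolic genes did.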

How the data were processed

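RNA sequencing of 36 libraries (SMARTer cDNA with Nextera XT, an unstranded preparation, read as 100-base single reads) gave 1 table. Per the submitters' processing notes, TopHat, Cufflinks and DESeq2 were used with GRCm38 (mm10). Those notes state neither version nor role. What the authors deposited is a normalized signal, each gene's read count divided by 1 size factor per library. In 100% of values they gave whole reads within 0.01, and edgeR 4.0.16 and DESeq2 1.42.0 were run on those reads as alternatives.

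Here log2(normalized count + 1) of the 11853 genes with a mean of at least 10 was fitted by limma 3.58.1 (R 4.3.3, mean-variance trend, 12 group means, 24 residual degrees of freedom) and tested in 12 comparisons. All p-values are two-sided, and adjusted ones are Benjamini-Hochberg values over all genes tested. A fold on this scale understates changes of low genes. The members and lists were chosen with earlier results of these data known. Genes named were up to 4 rises and 4 falls per comparison among called genes with a mean of at least 50 (for responses with groups that did not overlap), the 8 highest genes, those under the minimum mean, 26 genes fixed by role, and up to 4 abundant genes of each other list. Others were named after their values were seen. A few genes that the rule takes are in the counts but are not reported here by name. Promoters are from RefSeq, positions and lengths from GENCODE for GRCm38. The test and the recovery of reads were tested on simulated data. Alternatives were other scalings, tools, pseudocounts and filters, fewer samples and a replicate block. Depth sets the precision: Rps21 and Rpl37 rest on few reads.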

Additional observations from a re-analysis of the deposited data

Results flagged for a closer look

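The response to PAMP RNA at 6 h differed between KO and WT in Rpl39 and Rps26 by a test of the difference itself (limma, Benjamini-Hochberg adjusted over all genes). Rpl39 had a KO response 0.46 higher than the WT response (adjusted p = 0.00388), and Rps26 one -0.36 apart, the lower in KO (adjusted p = 0.0165). For Rpl39 the 3 KO mock libraries lay below the 3 WT mock libraries at 6 h, and the PAMP libraries of the genotypes overlapped. For Rps26 the 3 KO mock libraries lay above the WT ones.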

How the results depend on the processing

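On every setting the counts of genes that rose or fell at 1 h were 0. The scaling decided most of the rest, and the cause was not tested. Written as rose, fell and median change, quantile normalization gave 0, 28 and -0.14 for WT at 3 h, 5, 60 and -0.34 for WT at 6 h, 0, 55 and -0.29 for KO at 3 h and 4, 58 and -0.35 for KO at 6 h. Equal totals gave 0, 12 and -0.085, then 0, 62 and -0.30, then 0, 57 and -0.21, then 1, 60 and -0.36. For the response difference at 6 h quantile normalization gave 1 and 3, equal totals 1 and 6 (median -0.056), DESeq2 and no filter 1 rise (no filter 0 falls), and a fit of only the groups compared 10 rises. Over all genes quantile normalization gave 381 rises and 516 falls, and equal totals 380 and 1249. DESeq2 gave 782 rises, no filter 686 rises and 363 falls, and the groups compared 777 rises. For mock cells quantile normalization gave 1 rise from 1 to 3 h and 2 rises and 14 falls from 3 to 6 h, and equal totals 2 and 13. From 3 to 6 h DESeq2 gave 11 rises, no filter 2 and only the groups compared 8. Over all genes these 3 settings gave 3787, 3442 and 3613 rises.

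For WT at 3 h there were 2 rises with no filter, where 2472 of 19240 genes rose. A fit of only the groups compared gave 24 rises and 1 fall, where 2559 of 11853 genes rose and 2925 fell. In edgeR there was 1 fall, where 3046 of 11853 genes fell. For KO at 3 h there were 2 rises in DESeq2, with a pseudocount of 5 and with a minimum mean of 50. Over all genes these settings gave 2815, 2827 and 2554 rises. Without the 3 libraries that stood apart (an alternative chosen after seeing the data) there were 0 rises and 1 fall for WT and 0 and 3 for KO at 3 h, 6 and 2 for the response difference, 58 genes lower in KO mock cells, and 7 falls from 1 to 3 h and 7 from 3 to 6 h. In that fit 3134 of all genes tested fell from 1 to 3 h and 3360 from 3 to 6 h. Single genes changed sign. In WT at 3 h these were Rps20 (-0.037), Rpl27 (-0.043) and Rps24 (-0.093) after quantile normalization, and Rpl27 (-0.0018) and Rps24 (-0.0031) with equal totals. In KO at 3 h it was Rps20 (-0.12 after quantile normalization and -0.046 with equal totals). At 6 h they were Rps20 in WT (-0.067) and Rps24 in KO (-0.14) after quantile normalization, and Rps27 in KO (-0.0018) with equal totals. Of these only Rps24 in KO at 6 h passed the test in the other direction (adjusted p = 0.0417).

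With 1 library left out in turn, rises ranged from 0 to 10 for WT at 3 h, 10 to 21 for WT at 6 h, 0 to 6 for KO at 3 h, 26 to 35 for KO at 6 h, 1 to 3 for the response difference at 6 h, 0 to 1 for mock cells from 1 to 3 h and 3 to 7 from 3 to 6 h. Falls ranged over 5 to 7 for WT at 6 h, 0 to 2 for KO at 3 h, 7 to 12 for KO at 6 h, 0 to 2 for the response difference, 15 to 47 for KO against WT in mock cells, 1 to 10 from 1 to 3 h and 2 to 6 from 3 to 6 h. Calls over all genes were not counted with 1 library left out. The replicate numbers did not pair the libraries: the median correlation of same-numbered deviations was 0.0017, and 12 of 36 libraries lay closest to their own number. A replicate block gave 18 rises and 7 falls for WT and 34 and 10 for KO at 6 h, and 30 genes lower in KO mock cells. Depth limits the scarce genes, and the 3 genes under the minimum mean were not tested.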
